A study of Mus musculus with 5 samples.

Results

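The fibrillar collagen genes *Col1a1*, *Col1a2*, *Col3a1*, *Col5a1* and *Col5a2* were followed across spatial transcriptomes of neonatal mouse hearts. They were taken by symbol, and all 5 were listed in every section among the 13711 genes that the sections shared. The hearts came from wild-type C57BL/6 mice operated on at postnatal day 1. Some received a tie around the left anterior descending coronary artery (myocardial infarction, MI) and others a Sham operation, and 10 µm transverse sections from 200 µm below the suture, or the matching level in Sham hearts, were placed on Visium slides. The groups were 1 Sham and 1 MI section at day 3 after surgery, and 1 Sham and 2 MI sections at day 7. The 2 MI day 7 sections were deposited as separate replicates and are the only replicates of any group, so every p-value below rests on at most 5 sections, on 3 for fits within MI, and on 1 section fewer where a section is left out.

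Fibrillar collagens are the rod-like proteins of the extracellular matrix that assemble into cross-striated fibrils. Type I collagen is a heterotrimer of the *Col1a1* and *Col1a2* chains and gives scars their tensile strength. Type III collagen, a homotrimer of *Col3a1*, is laid down early in wounds and is abundant in compliant tissue, and type V collagen, built from *Col5a1* and *Col5a2* chains, sits inside type I fibrils and limits their diameter. In the heart these chains are made mainly by fibroblasts. Each chain is made as a procollagen that is hydroxylated and folded in the endoplasmic reticulum with the help of *Serpinh1* (HSP47), cut outside the cell by *Bmp1* and *Adamts2*, and cross-linked by lysyl oxidases.

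In the GRCm38 assembly *Col1a1* lies at chr11:94936224-94953042, *Col1a2* at chr6:4504814-4541544 and *Col5a1* at chr2:27886425-28039514, all on the plus strand. *Col3a1* at chr1:45311538-45349706 (plus strand) and *Col5a2* at chr1:45374321-45503282 (minus strand) are neighbours that face each other across a gap of 24614 bases. Because the members moved together across spots, the sequence before their starts is shown for the 3 members with an entry in the RefSeq promoter table (build GRCm38.p6). The capitals mark matches on either strand to CCAAT, the box bound by NF-Y, to TATAAA, a form of the TATA box, to GGGCGG, the GC box bound by Sp1, and to CAGAC, the core letters of a SMAD element. For *Col3a1* (chr1:45311338-45311537) and *Col5a1* (chr2:27886225-27886424) these are the 200 bases before the RefSeq start, and for *Col1a2* the first 75 of those 200 (chr6:4505418-4505492), because the other 125 lie in an annotated exon of a GENCODE transcript.
*Col3a1*: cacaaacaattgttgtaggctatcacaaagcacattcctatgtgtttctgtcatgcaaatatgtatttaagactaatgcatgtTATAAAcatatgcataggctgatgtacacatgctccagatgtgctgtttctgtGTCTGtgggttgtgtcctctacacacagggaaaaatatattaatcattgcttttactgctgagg
*Col5a1*: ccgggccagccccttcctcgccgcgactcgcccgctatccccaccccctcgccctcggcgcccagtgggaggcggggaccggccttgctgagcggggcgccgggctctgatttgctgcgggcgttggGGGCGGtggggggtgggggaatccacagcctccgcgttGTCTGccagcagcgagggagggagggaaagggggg
*Col1a2*: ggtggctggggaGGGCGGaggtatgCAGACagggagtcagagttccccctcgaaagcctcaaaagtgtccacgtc

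The *Col1a2* window also held CCAAT 109 bases before the RefSeq start, inside the annotated exon, and 30 bases around it (chr6:4505497-4505526) show that box in capitals.
*Col1a2* CCAAT site: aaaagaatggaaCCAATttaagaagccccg
The letters in these windows differed from gene to gene. GC content was 37.5% for *Col3a1*, 63.5% for *Col1a2* and 75.5% for *Col5a1*, against a median of 53.0% over 32851 promoter windows of 200 bases. CAGAC was present in all 3 windows and in 35.5% of all windows. GGGCGG was present in *Col1a2* and *Col5a1* and in 31.0% of all windows, CCAAT in *Col1a2* and in 29.3%, and TATAAA in *Col3a1* and in 9.96%. None of these letter matches was shared by all 3 members except CAGAC, and a match of letters is a description of the window only.

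The 5 sections held 376 to 960 spots, with a median of 20842.5 to 53940 UMIs per spot. A spot covers several cells, and for bulk-like averages over spots fewer cells of a type and less RNA per cell cannot be told apart. The tissue label was borne out by the cardiomyocyte markers, of which *Myh6* and *Tnnt2* averaged 5544 to 8156 and 4749 to 5295 CPM, the value of a gene after every spot is scaled to the same total. In 4 sections the deposited values were depth-corrected counts, and in the Sham day 3 section they were raw UMIs, so the day 3 comparison and each comparison of MI with Sham across days join 2 kinds of values. Low-depth spots, with raw UMIs under their section's median divided by 3, numbered 24 in the MI day 3 section, 22 of them at its edge or detached from it, and 3 to 10 in the other sections.

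The highest mean of each member was in an MI section, either MI day 3 or MI day 7 replicate 2. Mean *Col1a1* was 686 CPM in Sham day 3, 1234 CPM in MI day 3, 638 CPM in Sham day 7, and 820 and 1291 CPM in MI day 7 replicates 1 and 2. *Col1a2* followed at 555, 1034, 614, 733 and 1128 CPM in the same order. For both type I chains the 3 MI sections lay above both Sham sections, with MI day 7 replicate 1 the lowest of the MI sections.

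*Col3a1*, the type III chain, averaged 1683 CPM in Sham day 3, 2070 CPM in MI day 3 and 1947 CPM in Sham day 7, and 2269 and 3002 CPM in the MI day 7 replicates. Its 3 MI sections were also above both Sham sections, but the distance between the lowest MI and the highest Sham section was small. *Col5a1* measured 242, 351, 229, 217 and 316 CPM, and *Col5a2* 116, 223, 113, 117 and 179 CPM, in the order used above. *Col5a1* overlapped between the groups, since MI day 7 replicate 1 lay below both Sham sections, and *Col5a2* in that section was nearly level with Sham day 3. In all, 4 of 5 members had every MI section above both Sham sections, a pattern seen in 6.84% of 12933 genes. At day 7 the mean of the MI replicates was 1056 ± 333 CPM for *Col1a1*, 931 ± 279 for *Col1a2*, 2636 ± 519 for *Col3a1*, 267 ± 69.5 for *Col5a1* and 148 ± 43.4 for *Col5a2* (SD, n = 2).

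**Figure D1:**
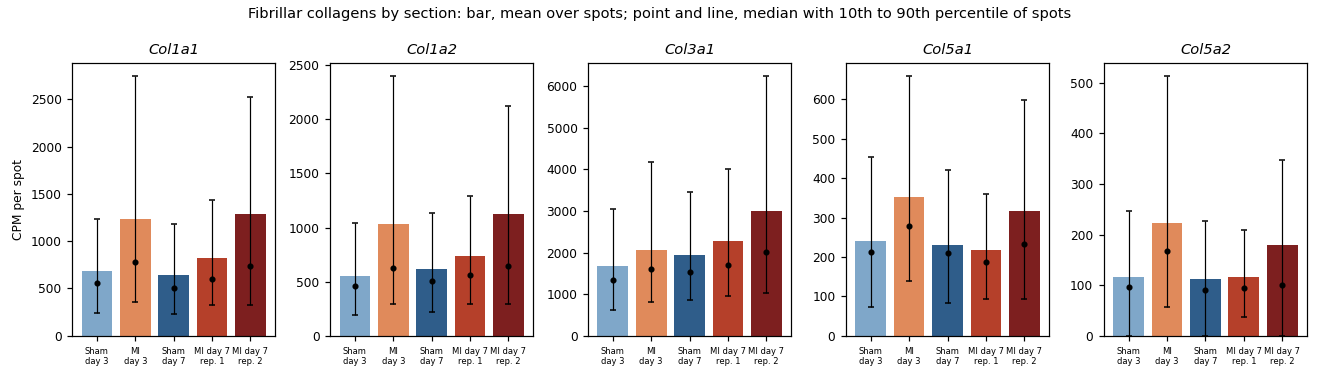
Level of each fibrillar collagen in the 5 sections, in CPM per spot on a linear axis that starts at 0. Bars give the mean over spots, and points with lines give the median and the 10th to 90th percentile of spots; *Col1a1* rises from 686 CPM in the Sham day 3 section to 1234 CPM in the MI day 3 section, and its median rises less than its mean.

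The first comparison asked whether the members differed between MI and Sham hearts when both days were considered. None passed the threshold when sections were averaged over all spots. The log2 difference, fitted with day as a covariate, was 0.76 (SE 0.21) for *Col1a1*, 0.71 (SE 0.21) for *Col1a2*, 0.37 (SE 0.17) for *Col3a1*, 0.34 (SE 0.18) for *Col5a1* and 0.61 (SE 0.21) for *Col5a2*, with adjusted p of 0.435 to 0.705 by limma over all 12933 genes. The median of the members was 0.61 and that of all genes -0.01. The number called was 0 of 5, against 0.00773% of all genes called higher, and 3 of 5 had an unadjusted p under 0.05. Because the called set is so small in this fit, the count of 0 says little about the members. Markers of other cells moved as well, with none called by limma but an unadjusted p under 0.05 for 7 of 7 macrophage markers (median 1.32), 5 of 5 blood markers (median 0.82), 4 of 9 fibroblast markers (median 0.24) and 2 of 4 epicardial markers (median 0.69). Those 4 fibroblast markers went both ways, with *Fbln1* higher (1.16) and *Mfap5* lower (-0.82) in MI. Summed macrophage markers were 87.6 and 95.02 CPM for Sham and 149 to 887 CPM for MI, and their part was not tested. Without MI day 7 replicate 1, *Col1a1* (0.93, adjusted p = 0.0327, limma), *Col1a2* (0.89, adjusted p = 0.0321) and *Col5a2* (0.80, adjusted p = 0.0417) passed, and with the sex of the animals, read from *Xist* and *Ddx3y* since the labels give none, as a covariate the same 3 genes passed at 0.71, 0.65 and 0.54. The share of all genes called higher was 0.629% and 1.78% in these alternatives.

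The 2 days were also compared on their own. At day 3, with 1 section a group and no test, the MI over Sham ratio was 1.80 for *Col1a1*, 1.86 for *Col1a2*, 1.23 for *Col3a1*, 1.45 for *Col5a1* and 1.92 for *Col5a2*. Thus 3 of 5 members were at least 1.5-fold higher, against 10.9% of 12931 genes. At day 7 the log2 difference was 0.69 (SE 0.31), 0.57 (SE 0.30), 0.42 (SE 0.32), 0.19 (SE 0.27) and 0.36 (SE 0.27) for *Col1a1*, *Col1a2*, *Col3a1*, *Col5a1* and *Col5a2*. The limma adjusted p was 1.00 for each, so that 0 of 5 were called against 0.186% of all genes, and 1 of 5 had an unadjusted p under 0.05. Markers of other cells also moved at day 7, with a median log2 difference of 0.74 for macrophage, 0.95 for epicardial, 0.45 for blood and 0.31 for fibroblast markers. Their part in the collagen values was not tested. The MI replicates stood apart, since *Col1a1* in replicate 1 was 1.29 times and in replicate 2 was 2.02 times the Sham day 7 level, and *Col5a1* was 0.948 and 1.38 times that level. Between the Sham sections, day 7 over day 3 gave ratios of 0.93 for *Col1a1* and 1.16 for *Col3a1*, with no replicate.

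The balance of the chains shifted with the section as well. *Col3a1* over *Col1a1*, a ratio of 3' end counts that is not corrected for length, was 2.45 in Sham day 3 and 1.67 in MI day 3, and 3.06 in Sham day 7 against 2.76 and 2.34 in the MI day 7 replicates. At each day it was lower in MI than in Sham, yet the groups overlapped across days, and the exact permutation test gave p = 0.4 (two-sided; 3 sections against 2 allow no p under 0.2; Benjamini-Hochberg p = 0.8 over 4 ratios). The ratio of the type I chains, *Col1a1* over *Col1a2*, stayed between 1.04 and 1.24 in the 5 sections (exact permutation p = 1). *Col5a1* over *Col1a1* was 0.364 in Sham day 3, 0.361 in Sham day 7 and 0.248 to 0.284 over MI sections. Those groups did not overlap, at the smallest exact permutation p that the design allows (0.2; Benjamini-Hochberg p = 0.8). For the other type V chain the groups did overlap, with *Col5a2* over *Col1a1* at 0.175 and 0.177 in Sham day 3 and Sham day 7, 0.181 in MI day 3, and 0.143 and 0.139 in the MI day 7 replicates (exact permutation p = 0.6; Benjamini-Hochberg p = 0.8).

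The summed level of the 5 members in the highest spot was 23357 CPM in Sham day 3 and 24157 CPM in MI day 3, and 17377 CPM in Sham day 7 against 29214 and 61247 CPM in the MI day 7 replicates. The section medians were 2707 and 3466 CPM at day 3, and 2864, 3189 and 3740 CPM at day 7. The highest spots were thus nearly level at day 3 and far apart at day 7, and the highest single *Col3a1* value at day 3 was in Sham (14189 against 7861 CPM). Each such value is that of a single spot. The 3 low-depth spots of Sham day 3 had a mean summed level of 11846 CPM, against 3234 CPM in its other spots. These means were 5078 against 4902 CPM in MI day 3 and 4064 against 3537 CPM in Sham day 7. They were 2443 against 4180 and 13182 against 5823 CPM in the MI day 7 replicates. The top 10% of spots held 45.1% of all *Col1a1* in MI day 7 replicate 2, 33.4% in MI day 3 and 31.4% in MI day 7 replicate 1, compared with 26.4% and 28.3% in Sham day 3 and Sham day 7. For *Col5a1* the same share was 22.9% to 23.4% for Sham and 23.8% to 31.9% for MI. These rich spots formed patches in the day 3 MI section, where 29 of the 38 highest spots were joined into 1 patch, and in MI day 7 replicate 2, where 49 of 79 were. In the remaining sections the largest patch held 22 of 54 (Sham day 3), 38 of 96 (Sham day 7) and 22 of 69 spots (MI day 7 replicate 1). In MI day 7 replicate 2, 44.3% of the highest spots were at the section's edge, against 20.6% of all its spots, and their median depth was 13920 UMIs against 20904 over the section. The part of edge and depth in these levels was not tested.

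Spatial clustering was measured by Moran's I, which is 0 when neighbouring spots are unrelated and approaches 1 when they are alike. For *Col1a1* it was 0.282 in Sham day 3 and 0.392 in Sham day 7, and it reached 0.721 in MI day 3 and 0.489 and 0.698 in the MI day 7 replicates. *Col5a2* had low values in Sham hearts, at 0.105 and 0.0767, while MI sections gave 0.631, 0.313 and 0.579. In all 5 members every MI section exceeded both Sham sections, as it did in 23.9% of 12931 genes, and each had an exact permutation p of 0.2, the smallest possible. Sections differ in depth, and the median Moran's I over 1261 genes with at least 100 CPM was 0.0752 to 0.142 over MI sections and at most 0.0329 over Sham sections.

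**Figure D2:**
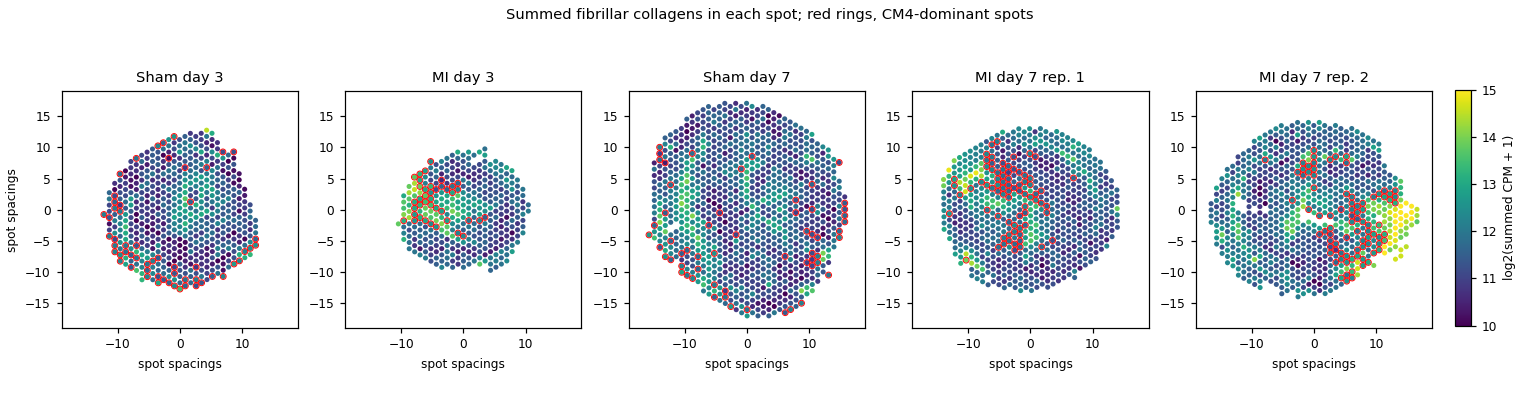
Map of the summed level of the 5 fibrillar collagens in each spot, as log2(CPM + 1) on a shared colour scale, with axes in spot spacings from the middle of each section. Red rings mark CM4-dominant spots, detached spots without a neighbour are not drawn, and the brightest patch reaches 61247 CPM in MI day 7 replicate 2.

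Across the spots of a section the members rose and fell together. Spearman's rho between *Col1a1* and *Col3a1*, averaged over the 5 sections, was 0.83 (0.76 to 0.87), and between *Col1a1* and *Col1a2* it was 0.78 (0.69 to 0.86). The type V chains were less tightly tied, at 0.60 for *Col1a1* with *Col5a1*, 0.51 for *Col1a1* with *Col5a2* and 0.43 for *Col5a1* with *Col5a2*. Spots of a section share 1 library and are not independent, and genes with fewer counts give lower rho, so these values are a description over 376 to 960 spots per section. Among 5838 other genes with at least 20 CPM, the 5 most like the summed members were *Postn* (mean rho 0.74), *Sparc* (0.69), *Bgn* (0.64), *Igfbp7* (0.64) and *Dcn* (0.63). *Postn* encodes periostin, a matrix protein of activated fibroblasts, *Sparc* a collagen-binding matricellular protein, and *Bgn* and *Dcn* the small proteoglycans biglycan and decorin that bind collagen fibrils. *Postn* and *Sparc* were also the 2 genes most like each member taken alone, at 0.71 and 0.67 for *Col3a1* and 0.50 and 0.48 for *Col5a2*. At the other end were *Cox6a2* (-0.54), *Myl3* (-0.51) and *Slc25a4* (-0.51), which encode proteins of heart muscle mitochondria and of the sarcomere and were named after their values were seen.

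The study's metadata gave each spot 11 cell type scores, estimates from a label transfer on the same expression values, and a spot was assigned here to the class with the highest score. Among classes with at least 20 spots in a section, the median of the summed members over sections was highest where the fibroblast (FB) score led, at 9129 CPM (5169 to 15527). Endocardial (EndoEC) spots followed at 5982 CPM (4192 to 6920), then spots of the cardiomyocyte state CM4 at 4033 (3405 to 7114), endothelial (EC) spots at 3181 (2176 to 3901) and spots of the main cardiomyocyte state CM1 at 2781 (2072 to 3278). The ranges of EC and CM1 overlapped, with EC above CM1 in 4 of 5 sections, and those of the other neighbours in this order, FB with EndoEC, EndoEC with CM4 and CM4 with EC, overlapped too. Spots led by the macrophage score had a median of 3413 CPM over 4 sections but ranged from 2901 to 14472, the latter in MI day 3. There *Col1a1* averaged 4234 CPM in 20 macrophage-dominant spots, above the 2421 CPM of the 22 FB-dominant spots of that section. MI day 7 replicate 2 had 13 macrophage-dominant spots, too few for the ranking, with a summed level of 22261 CPM and *Col1a1* at 6315 CPM, against 3554 CPM in its FB-dominant spots. Spots led by the epicardial (EPI) score were also under the limit of 20 in every section. Their summed level was 15999 CPM in Sham day 3 (2 spots), 9144 CPM in MI day 3 (8 spots), and 12927 and 26732 CPM in the MI day 7 replicates (6 and 15 spots), above FB-dominant spots in all of these sections but MI day 3, where those were at 9650 CPM. Mean *Col1a1* in FB-dominant spots was 2.38 times (Sham day 3), 3.52 times (MI day 3), 2.60 times (Sham day 7), 3.35 times and 5.63 times (MI day 7 replicates) that in CM1-dominant spots. Every member was at least 1.5-fold higher in FB-dominant than in CM1-dominant spots in every section, as were 4.61% of 12895 genes, and since the scores came from the same values this is no test. FB-dominant spots made up 22.4% and 27.7% of Sham day 3 and Sham day 7 spots, and 5.85%, 13.6% and 11.9% of spots in MI day 3 and the MI day 7 replicates. They held 35.3% and 45.6% of the summed members for Sham, against 11.5%, 29.8% and 31.2% for MI, while CM1-dominant spots held 26.1% to 34.4% in all sections.

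**Figure D3:**
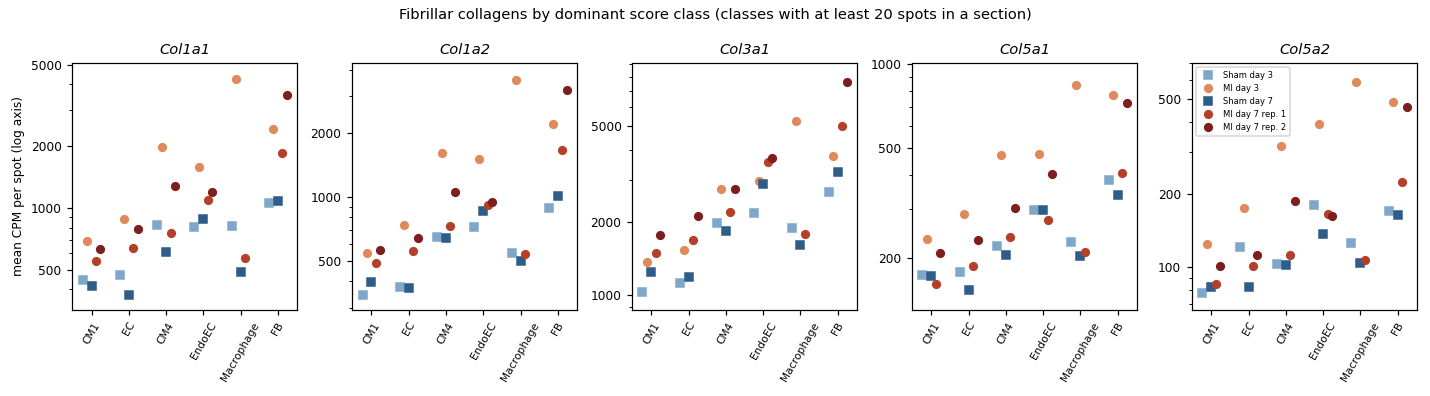
Mean level of each member, in CPM per spot on a log axis, by dominant score class and section, for classes with at least 20 spots in a section. Squares are Sham and circles MI sections; FB-dominant spots are highest in 4 of 5 sections for *Col1a1*, and in MI day 3 the macrophage-dominant spots are at 4234 CPM. The CM3 class, with 27 spots in the Sham day 7 section only, is not drawn.

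Within a class the comparison of MI with Sham was repeated, to lessen the weight of the mix of classes. In FB-dominant spots *Col1a1* was 1060 CPM in Sham day 3, 1078 CPM in Sham day 7, 2421 CPM in MI day 3, and 1845 and 3554 CPM in the MI day 7 replicates. *Col5a2* was 170, 165, 483, 225 and 460 CPM in that order. Each MI section exceeded both Sham sections for 5 of 5 members, as it did for 13.1% of 13266 genes. The fitted log2 differences were 1.22 (SE 0.28) for *Col1a1*, 1.24 (SE 0.28) for *Col1a2*, 0.74 (SE 0.31) for *Col3a1*, 0.83 (SE 0.23) for *Col5a1* and 1.19 (SE 0.26) for *Col5a2*. The limma adjusted p ran from 0.0745 to 0.344, and so 0 of 5 were called against 0.588% of 13266 genes, although all 5 had an unadjusted p under 0.05. Without MI day 7 replicate 1, 4 of 5 passed, *Col3a1* being the exception at 0.86 (adjusted p = 0.0647), and the share of all genes called higher rose to 4.10%. Without MI day 7 replicate 2, no gene was called by limma (0 of 13040), where 737 higher and 397 lower genes had an unadjusted p under 0.05. With the mitochondrial and haemoglobin genes left out of the scaling, *Col1a2* (adjusted p = 0.0455) and *Col5a2* (adjusted p = 0.0367) passed, beside 0.846% of all genes called higher. The same spots gave higher macrophage markers in MI, 4 of 7 being called in this fit, with a summed level of 105 to 119 CPM for Sham and 216 to 1581 CPM for MI, and their part in the collagen values was not tested.

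In CM1-dominant spots the fitted values were 0.56 (SE 0.15) for *Col1a1*, 0.51 (SE 0.16) for *Col1a2*, 0.40 (SE 0.17) for *Col3a1*, 0.23 (SE 0.16) for *Col5a1* and 0.38 (SE 0.17) for *Col5a2*, and 0 of 5 were called by limma (adjusted p 0.190 to 0.848) against 0.188% of 12748 genes called higher and 0.251% in either direction. Here 4 of 5 had an unadjusted p under 0.05. *Col1a1* passed without the mitochondrial and haemoglobin genes (0.65, adjusted p = 0.0332), beside 0.1% of all genes called higher, and *Col1a1* and *Col1a2* passed without MI day 7 replicate 1, beside 0.173%. In the same spots all 7 macrophage markers (median 1.05) and all 5 blood markers (median 0.94) had an unadjusted p under 0.05, and *Hba-a2* (1.197), the fibroblast marker *Fbln1* (1.00) and the epicardial marker *Msln* (2.15) were called. Their part in the collagen values was not tested. Whether the difference in FB-dominant spots exceeds that in CM1-dominant spots was not tested.

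Other genes of the collagen pathway were read in the same FB-dominant fit, where 0.588% of all genes were called higher. Over 7 lists of the pathway 5 of 69 tested genes were called, and 0 with a pseudocount of 10 or without Sham day 3, MI day 3 or MI day 7 replicate 2. Leaving out MI day 7 replicate 1 gave 33. Of 9 listed non-fibrillar collagens, *Col14a1* (1.09, adjusted p = 0.0375, limma) and *Col16a1* (1.40, adjusted p = 0.044) were called higher, and the median of the list was 0.81 against 0.03 for all genes. *Adamts2*, which removes the amino-terminal propeptide of procollagen, rose by 1.59 on the log2 scale (adjusted p = 0.0227) and was the only one called of 11 tested genes for processing and crosslinking. In collagen breakdown and uptake, *Mmp2*, a gelatinase (1.10, adjusted p = 0.0227), and *Mrc2*, an endocytic collagen receptor (1.24, adjusted p = 0.0413), were called higher, 2 of 11. None of the 14 folding and hydroxylation genes, 12 genes of the TGF-beta pathway or 7 collagen receptors passed in this limma fit, where 7, 5 and 1 of them had an unadjusted p under 0.05. The list medians were 0.44, 0.35 and 0.14. Among fibroblast markers *Fbln1* (1.89) and *Lum* (0.93) were called higher, with 8 of 9 at an unadjusted p under 0.05 and a median of 0.85. None of the activated fibroblast markers was called, though 7 of 7 were higher in MI, with 5 of 7 at an unadjusted p under 0.05 and a median of 1.14. The lists were chosen with earlier results of these data known.

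CM4 is a cardiomyocyte state that the study describes in regenerating neonatal hearts, and its spots lay at the section's edge in 56.1% and 43.1% of cases for Sham day 3 and Sham day 7, and in 12.5%, 1.32% and 15.1% for MI day 3 and the MI day 7 replicates. The part of edge position was not tested. All 5 members were higher in CM4-dominant than in CM1-dominant spots. *Col1a1* in CM4-dominant spots was 828 CPM against 446 in CM1-dominant spots of Sham day 3, 1970 against 688 in MI day 3, 611 against 415 in Sham day 7, and 756 against 551 and 1285 against 632 in the MI day 7 replicates. Every section showed the same direction, with ratios of 1.37 to 2.86. The fitted log2 differences, with the section as a block, were 0.89 (SE 0.11) for *Col1a1*, 0.93 (SE 0.11) for *Col1a2*, 0.74 (SE 0.09) for *Col3a1*, 0.54 (SE 0.10) for *Col5a1* and 0.67 (SE 0.12) for *Col5a2*. All 5 were called (limma adjusted p from 4.43e-05 to 0.00469), against 1.09% of 13285 genes called higher and a median of 0.06 for all genes. Because the classes were derived from the same expression values, this describes the classes, and markers of other cells moved with it. Fibroblast markers were called higher in 6 of 9, led by *Fbln1* at 1.16, activated fibroblast markers in 5 of 7, macrophage markers in 2 of 7 (*Lyz2* at 1.03 and *Cd68* at 0.88) and mural markers in 2 of 6 (*Tagln* at 1.17 and *Myh11* at 1.02). *Acta2* (0.61), among the called activated fibroblast markers, is also the marker that the study uses for CM4 cells. It cannot be assigned to another cell type here. None of 5 blood markers was called by limma, though all 5 had an unadjusted p under 0.05. The part of these cells in the collagen values was not tested.

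Other genes of the pathway were called in part, 17 of 68 over the 7 lists beside 1.09% of all genes. The count fell to 8 without MI day 7 replicate 2 and to 10 without MI day 3 or with a pseudocount of 0.1 or 10, and to 11 of 69 with a top score of at least 0.5. Of the 9 listed non-fibrillar collagens 6 were called higher, among them *Col14a1* (0.71), *Col6a3* (0.69), *Col12a1* (1.38) and *Col16a1* (0.79). Genes for processing and crosslinking were also called higher, *Lox* by 1.17, *Adamts2* by 0.94, *Loxl1* by 0.67 and *Pcolce*, the enhancer of propeptide removal, by 0.52, 4 of 10 tested. In breakdown and uptake 4 of 11 were called, among them *Mmp2* (0.54) and *Mrc2* (0.75). Only *Sparc* (0.45) and *Ppib* (0.33) were called of 14 folding and hydroxylation genes, and 0 of 5 other fibrillar collagens, 3 of them with an unadjusted p under 0.05 (limma). *Tgfb3* (0.83) was the only one of 12 TGF-beta pathway genes called, and 0 of 7 collagen receptors passed, 3 of them with an unadjusted p under 0.05 (limma).

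The excess in CM4-dominant spots was then compared between MI and Sham. The difference of the differences was 0.27 (SE 0.20) for *Col1a1*, 0.23 (SE 0.19) for *Col1a2*, -0.029 (SE 0.16) for *Col3a1*, 0.41 (SE 0.15) for *Col5a1* and 0.53 (SE 0.19) for *Col5a2*, beside a median of 0.28 over all genes. Relative to that median the members lay at -0.0045, -0.051, -0.31, 0.13 and 0.26. None was called by limma (adjusted p 0.131 to 0.934; 0 of 5 against 1.58% of all genes), and 2 of 5 had an unadjusted p under 0.05. For the type I chains even the direction depended on the scaling, since median-of-ratios scaling gave -0.010 and -0.057. Without MI day 7 replicate 1, *Col1a1* (0.55, limma adjusted p = 0.0406) and *Col5a2* (0.77, adjusted p = 0.0092) passed, beside 1.72% of all genes called higher.

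Distance to CM4-dominant spots showed where in the section the members were rich. Distances are in spot spacings, and immediate neighbours of a CM4-dominant spot are called near, while those at 3.5 spacings or more are called far. In all 3 MI sections the summed members were highest in the near ring, at 7659 CPM (MI day 3), 5398 and 7919 CPM (MI day 7 replicates), above the CM4-dominant spots themselves at 7114, 4033 and 5574 CPM. They fell to 2835, 3133 and 4583 CPM between 3.5 and 5.5 spacings. In the MI day 3 section they rose again to 4158 CPM beyond 5.5 spacings, in a ring of 69 spots of which 63.8% were at the edge. Median depth there was 20763 UMIs, against 33806.5 between 3.5 and 5.5 spacings. All 24 low-depth spots of that section were far spots, and without them the far mean of the summed members was 3125 instead of 3431 CPM. The part of depth and edge in this rise was not tested. In Sham sections the profile was flatter, with 3854 and 3999 CPM in the near ring and 2900 and 3314 CPM between 3.5 and 5.5 spacings. Near over far ratios in Sham day 3 were 1.41 for *Col1a1*, 1.39 for *Col1a2*, 1.36 for *Col3a1*, 1.06 for *Col5a1* and 1.46 for *Col5a2*, and those in Sham day 7 ran from 1.11 to 1.38.

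**Figure D4:**
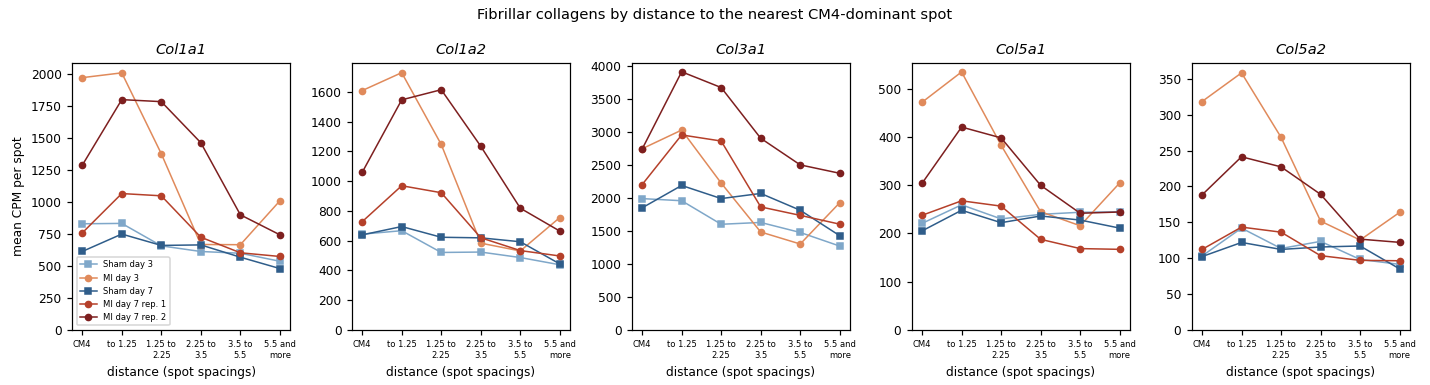
Mean level of each member, in CPM per spot on linear axes that start at 0, against the distance to the nearest CM4-dominant spot in spot spacings. Each line is 1 section, with squares for Sham and circles for MI; in the MI day 3 section *Col1a1* falls from 2007 CPM in the near ring to 664 CPM between 3.5 and 5.5 spacings.

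In MI sections near spots exceeded far spots for every member in every section, as they did for 52.3% of genes. *Col1a1* was 2007 against 819 CPM in MI day 3, and 1064 against 589 and 1798 against 801 CPM in the MI day 7 replicates. *Col3a1* was 3028 against 1582, 2954 against 1676 and 3912 against 2421 CPM, and *Col5a2* was 359 against 143, 143 against 96.6 and 241 against 124 CPM. The log2 differences were 1.10 (SE 0.11) for *Col1a1*, 1.15 (SE 0.12) for *Col1a2*, 0.82 (SE 0.12) for *Col3a1*, 0.84 (SE 0.09) for *Col5a1* and 0.95 (SE 0.12) for *Col5a2*, beside a median of 0.23 over all genes. All 5 were called (limma adjusted p 0.000497 to 0.00484), against 9.47% of 13086 genes called higher and 9.67% in either direction. Without MI day 7 replicate 2, *Col3a1* no longer passed (0.88, limma adjusted p = 0.0885). Median-of-ratios scaling brought the median of all genes to 0.00, and the members stayed called at 0.56 to 0.90.

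The composition of the spots changed over the same distance. FB-dominant spots made up 20%, 30.3% and 28.9% of near spots and 0.654%, 3.27% and 4.10% of far spots in MI day 3 and the MI day 7 replicates. For Sham they were 28.0% of near and 26.0% of far spots at day 3, and 40.4% and 19.9% at day 7. Macrophage-dominant spots were 18.7% of near and 0% of 153 far spots in MI day 3. A count of 0 would allow a share of up to 1.96% if spots were independent, which spots of a section are not. They were 2.58% of near and 5.61% of far spots in MI day 7 replicate 1, the opposite order, and 1.32% and 0.946% in replicate 2. For Sham they were 7.20% and 2.60% at day 3, and 11.7% and 7.07% at day 7. All 9 fibroblast and all 7 activated fibroblast markers were called higher near CM4-dominant spots in this fit, and 2 of 7 macrophage markers were, all 7 having an unadjusted p under 0.05. *Acta2*, among the activated fibroblast markers, is also the study's marker of CM4 cells. Endocardial *Plvap* (1.16) and *Npr3* (0.70), mural *Tagln* (1.24), *Cspg4* (0.52) and *Pdgfrb* (0.36), and *Acan* (1.54) and *Sox9* (1.01) of valve and cartilage were also called higher. *Ryr2* of cardiomyocytes (-0.43) and the haemoglobin genes *Hbb-bt* (-0.51) and *Hba-a2* (-0.40) were called lower. The part of these cells in the gradient was not tested. Among CM1-dominant spots only, which MI day 3 could not enter with 18 near spots, the near minus far difference was 0.36 for *Col1a1* (adjusted p = 0.000568, limma), 0.26 for *Col1a2* (adjusted p = 0.018), 0.14 for *Col3a1*, 0.27 for *Col5a1* and 0.12 for *Col5a2*, with a median of 0.16 over all genes. The MI day 3 values that were left out gave 0.035, 0.034, -0.00059, -0.12 and -0.029 in the same gene order. This fit rested on 2 sections with 1 residual degree of freedom, and 2 of 5 members were called beside 0.751% of 12648 genes called higher.

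Mitochondrial share and edge position also moved with distance. Mitochondrial genes took 9.20% of near and 17.4% of far values in MI day 3, and 22.0% against 28.9% and 12.96% against 18.2% in the MI day 7 replicates. In Sham hearts the order was the opposite, at 18.5% near and 12.6% far on day 3 and 16.5% and 14.4% on day 7. Edge spots made up 8%, 5.81% and 12.5% of near and 42.5%, 31.8% and 29.97% of far spots in the same MI order, but 24.0% and 14.9% of near and 7.14% and 10.1% of far Sham spots. With mitochondrial and haemoglobin genes left out, or with interior spots only, all 5 members stayed called in the near against far fit within MI.

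Genes of the pathway were called higher near CM4-dominant spots in 40 of 68 cases over the 7 lists, beside 9.47% of all genes and an all-gene median of 0.23. Under median-of-ratios scaling 18 of 68 were called, beside 1.44% of all genes, and among CM1-dominant spots 4 of 64. Of the listed non-fibrillar collagens 8 of 9 were called, those with the lowest adjusted p being *Col16a1* (1.30), *Col6a3* (0.91) and *Col8a1* (2.01). Of the other fibrillar collagens *Col11a1* (1.64), *Col5a3* (0.79) and *Col27a1* (1.26) were called, 3 of 5 tested. Folding and hydroxylation genes followed with 11 of 14, including *Fkbp10* (0.59), *Crtap* (0.51) and *P4hb* (0.48), and processing and crosslinking with 7 of 10, including *Adamts2* (1.48), *Lox* (1.29), *Loxl1* (1.26) and *Bmp1* (0.76). Of the breakdown and uptake genes 6 of 11 were called, among them *Timp1* (1.28), an inhibitor of metalloproteinases, and *Ctsk* (1.10), a collagen-cleaving cathepsin. The TGF-beta pathway had 3 of 12, *Tgfb3* (1.26), *Tgfbr1* (0.65) and *Tgfb1* (0.49), and the collagen receptors 2 of 7, *Ddr2* (0.84) and *Itga11* (1.16). No gene of these 7 lists was called lower.

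The last comparison asked whether the near to far gradient was steeper in MI than in Sham hearts. The near minus far log2 difference of *Col1a2* was 0.48 in Sham day 3, 0.34 in Sham day 7, 1.45 in MI day 3, and 0.91 and 1.10 in the MI day 7 replicates. For *Col5a1* it was 0.087, 0.15, 1.06, 0.67 and 0.79 in that order. *Col1a1* gave 0.50, 0.46, 1.29, 0.85 and 1.17. The MI sections lay above both Sham sections for 5 of 5 members, as they did for 34.9% of 13302 genes, but *Col5a2* only just, at 0.56 in MI day 7 replicate 1 and 0.54 in Sham day 3.

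The difference between MI and Sham was 0.62 (SE 0.14) for *Col1a1*, 0.74 (SE 0.15) for *Col1a2*, 0.41 (SE 0.14) for *Col3a1*, 0.72 (SE 0.13) for *Col5a1* and 0.59 (SE 0.18) for *Col5a2*, and the median over all genes was 0.24. Relative to all genes the members were higher by 0.39, 0.51, 0.18, 0.48 and 0.35. *Col1a2* (limma adjusted p = 0.0329) and *Col5a1* (adjusted p = 0.0195) were called, 2 of 5 against 0.819% of all genes called higher, and all 5 had an unadjusted p under 0.05. Both calls were lost under median-of-ratios scaling, with differences of 0.49 and 0.46 and a median of all genes of 0.00, and when Sham day 3, Sham day 7 or MI day 7 replicate 2 was left out. They were also lost with a pseudocount of 10, with mitochondrial and haemoglobin genes left out (0.50 for each), with far set at 5.5 spacings and with interior spots only. Among CM1-dominant spots the difference was 0.07 for *Col1a2* and 0.43 for *Col5a1*, with 0 of 5 called by limma and 1 of 5 at an unadjusted p under 0.05. The share of FB-dominant spots moved with the gradient, as given above, and its part was not tested. In the reported fit all 5 blood markers had an unadjusted p under 0.05 (limma, median -0.83), and *Hbb-bt* was called lower. The all-gene median was 0.059 without mitochondrial and haemoglobin genes. The part of the blood markers was not tested.

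**Figure D5:**
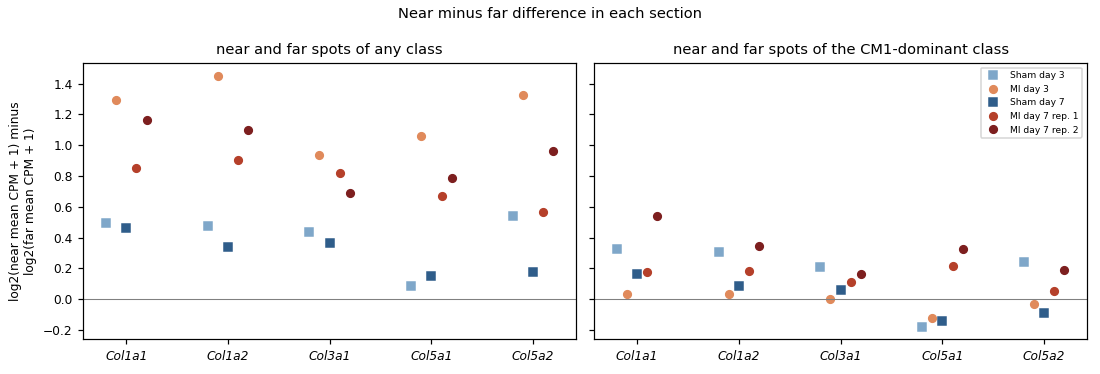
Near minus far difference of log2(mean CPM + 1) for each member and section, with squares for Sham and circles for MI sections, for spots of any class (left) and CM1-dominant spots (right). On the left the MI sections lie above the Sham sections for every member, with *Col5a1* at 0.67 to 1.06 against 0.087 and 0.15; on the right the groups overlap except for *Col5a1*, and MI day 3 rests on 18 near spots.

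Over the 7 pathway lists 12 of 68 genes were called in the same fit, beside 0.819% of all genes and an all-gene median of 0.24. The count was 5 under median-of-ratios scaling and with mitochondrial and haemoglobin genes left out, 1 with a pseudocount of 10, 2 of 69 with interior spots only, 6 without MI day 7 replicate 2, 1 without Sham day 7 and 0 without Sham day 3, where 3 of 13189 genes were called higher in all. Other settings gave 20 of 69 with CM4 spots taken as the top 10% of scores (2.40% of all genes called higher) and 17 without MI day 3 (2.94%). With far set at 5.5 spacings 3 were called (0.112%), and among CM1-dominant spots 1 of 66 (0.229%). In the reported fit *Bmp1*, the procollagen C-proteinase (0.97, limma adjusted p = 0.0045), *Adamts2* (1.13, adjusted p = 0.00732), *Loxl1* (1.05, adjusted p = 0.00832) and *Pcolce* (0.60, adjusted p = 0.0273) were called, 4 of 10 processing and crosslinking genes. *Fkbp10*, a chaperone that supports collagen hydroxylation, was the only one of 14 folding genes called (0.69, adjusted p = 0.027). *Col16a1* (1.14), *Col15a1* (0.78), *Col8a1* (1.73) and *Col14a1* (0.68) were called among the 9 listed non-fibrillar collagens. *Timp1* (1.48), *Mrc2* (0.91) and *Mmp2* (0.61) were called among 11 breakdown and uptake genes. Of the activated fibroblast markers *Cthrc1* (2.09), *Postn* (0.73) and *Meox1* (0.90) were called, and of the fibroblast markers *Lum* (0.86), *Fbln1* (0.78), *Gsn* (0.77) and *Dpt* (0.55). No TGF-beta pathway gene (0 of 12; 4 with an unadjusted p under 0.05), collagen receptor (0 of 7; 1) or other fibrillar collagen (0 of 5; 0) was called by limma.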

How the data were processed

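Expression was measured in 5 Visium sections, each from 1 file of genes by spots and 1 of spot metadata. Alignment to mm10 (GRCm38) by Space Ranger is named in the submitters' processing notes, its version not given in the sources used here, and Seurat is named in the methods of the study. The deposited Sham day 3 table held raw UMI counts, and the other 4 deposited tables held sctransform-corrected whole numbers, which are a score and not counts, so no count test was run and the fallback of the design was used. The authors' metadata gave raw UMI counts, 11 cell type scores as a fraction that sums to 1, and the spot position in pixels (other unit).

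Each spot was scaled to CPM over the 13711 genes in all 5 tables (99.8% to 99.9% of each table's values; 19 and 20 gene names read as dates in 2 tables were left out). Spots were averaged per section, class or distance ring, the section being the replicate. Fits used limma 3.58.1 in R 4.3.3 with a mean-variance trend on log2(mean CPM + 1), which understates changes of low genes, for genes with at least 1 CPM in at least 2 columns. P-values were two-sided with Benjamini-Hochberg adjustment over all genes tested and a threshold of 0.05. Residual degrees of freedom were 1 to 4. Exact permutation tests were run in scipy 1.17.1. Class arms needed 20 spots. UMI counting error of the raw table was small (*Col5a2*, 1286 UMIs, exact Poisson 95% interval 1217 to 1358, counting error only).

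The scripts were tested on simulated data. Named genes were the members, the 5 genes most like their sum and the 2 most like each, and from each list up to 4 called genes or the 2 of largest difference. The members and lists were chosen with earlier results of these data known. Alternatives covered pseudocounts, filters, scaling, left-out sections, sex, class and distance limits, and low-depth spots, the last added after seeing the data. The study's supplement describes the MI day 7 sections as independent biological replicates and each other section as a single biological sample.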

Additional observations from a re-analysis of the deposited data

Results flagged for a closer look

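In 2 members the near minus far gradient around CM4-dominant spots differed between MI and Sham hearts by the fitted test of that difference (limma, Benjamini-Hochberg over all genes). For *Col1a2* the gradient was steeper in MI by 0.74 on the log2 scale (adjusted p = 0.0329), with all 3 MI sections above both Sham sections. For *Col5a1* it was steeper by 0.72 (adjusted p = 0.0195), again in 3 of 3 MI sections, a pattern that 34.9% of all genes showed. Both calls were lost under median-of-ratios scaling, with a pseudocount of 10, with mitochondrial and haemoglobin genes left out, with far set at 5.5 spacings, with CM1-dominant or interior spots only, and without Sham day 3, Sham day 7 or MI day 7 replicate 2. Over the alternatives the adjusted p of *Col1a2* ran from 0.00015 to 0.841 and that of *Col5a1* from 0.000321 to 0.581.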

How the results depend on the processing

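Over 103 alternative fits, 457 of 515 values of single members kept their direction and their side of the threshold, 23 lost and 27 gained a call, and 8 changed sign. The excess in CM4-dominant over CM1-dominant spots kept all 5 calls throughout.

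For MI against Sham over both days, the sex term gave 3 members called instead of 0, and leaving out 1 section 0 to 3. In CM1-dominant spots leaving out the mitochondrial and haemoglobin genes gave 1 and the sex term 2, and leaving out 1 section 0 to 2. In FB-dominant spots leaving out those genes gave 2, and leaving out 1 section 0 to 4. At day 7 no alternative gave a call, and leaving out any day 7 section could not be fitted.

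For the MI minus Sham difference of the CM4 excess, leaving out 1 section gave 0 to 2 members called. There, *Col1a1* turned to -0.010 under median-of-ratios scaling, *Col1a2* to -0.057 under it and to -0.025 without mitochondrial and haemoglobin genes, and *Col3a1* to 0.023 without low-depth spots. Leaving out 1 section gave -0.049 to 0.45 for *Col1a2* (negative without MI day 3) and -0.22 to 0.16 for *Col3a1* (positive without Sham day 3 or either MI day 7 replicate).

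For near against far spots in MI, restricting to CM1-dominant spots gave 2 members called instead of 5. For the MI minus Sham difference of that gradient, 2 members were called in the reported fit, 0 with a pseudocount of 10, median-of-ratios scaling, mitochondrial and haemoglobin genes left out, far set at 5.5 spacings, CM1-dominant or interior spots only, 1 without low-depth spots, 5 with CM4 spots taken as the top 10% of scores, and 0 to 4 when leaving out 1 section. The causes were not tested. The count of all genes called also moved with the setting, from 0 to 365 over both days, 0 to 87 at day 7, 14 to 453 in CM1-dominant and 0 to 700 in FB-dominant spots, 63 to 300 for CM4 against CM1, 27 to 371 for its difference, 115 to 2525 near against far and 4 to 412 for the difference of that gradient; the reported fits gave 1, 30, 32, 79, 153, 230, 1266 and 120. No paired analysis was possible because the groups share replicate number 1 only. With 1 to 4 residual degrees of freedom, an adjusted p above 0.05 does not show equal levels.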
